A study of Arabidopsis thaliana with 8 samples.

Results

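The jacalin-related lectins described here are 10 of the 37336 genes counted in *Arabidopsis thaliana* seedlings. They lie in 3 tandem arrays: AT1G52000, *MBP2* (AT1G52030) and *MBP1* (AT1G52040) on chromosome 1, *JAL22* (AT2G39310) and *JAL23* (AT2G39330) on chromosome 2, and *PBP1* (AT3G16420, also JAL30), *JAL31* (AT3G16430), *JAL33* (AT3G16450), *JAL34* (AT3G16460) and *JR1* (AT3G16470, also JAL35) on chromosome 3. The genes were chosen by their levels in *ubp5* against Col-0 in these same libraries, so their difference between the genotypes is given as a description without a test. All 10 passed the filter on low counts. For *JAL23*, *MBP2* and *MBP1* this was through their *ubp5* libraries, as too few of their Col-0 counts were high enough. The same annotation and lists name 39 further jacalin-family genes, of which 13 passed it.

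Jacalin-related lectins are carbohydrate-binding proteins that often carry several copies of the jacalin fold. In Brassicaceae, part of the family binds the defence enzymes that are released when a cell is crushed. Myrosinases cleave glucosinolates, and myrosinase-binding proteins (MBPs) associate with them. PYK10 is the main β-glucosidase of the endoplasmic reticulum (ER) bodies of seedlings and roots, and PBP1 (PYK10-binding protein 1) takes its name from that partner. JR1 was named as a jasmonate-responsive gene, jasmonate being the hormone of the wound response.

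The wild type Col-0 was compared with *ubp5*, a single line in which CRISPR/Cas9 with a pair of guides removed parts of the DUSP and UBP domains of *UBP5*, a ubiquitin protease. Both genotypes grew on MS agar under long days, and whole seedlings were taken 12 days after germination, as 4 biological replicates a genotype. The assay was 3′ RNA-seq with molecular identifiers, so each count stands for 1 captured mRNA 3′ end. Levels are counts per 1000000 (CPM) on TMM-scaled library sizes and are not divided by gene length, because each molecule is tagged once.

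The libraries held 2572842 to 2997743 counts in Col-0 and 1440510 to 2595285 in *ubp5*. The first principal component (44.9% of the variance) separated the genotypes, and the second (15.2%) set Col-0 replicate 1 apart. *UBP5* itself was at 17.4 ± 4.33 CPM in Col-0 against 5.89 ± 1.53 CPM (SD, n = 4) in *ubp5*, a log2 change of -1.53 with a standard error (SE) of 0.25 and an edgeR adjusted p of 0.00236. Whether its 3′ tags lie outside the deleted part was not examined. Adjusted p-values are from the quasi-likelihood test of edgeR, adjusted over all tested genes by Benjamini-Hochberg, and a gene was called when this p was under 0.05 at a change of 1 or more on the log2 scale. Counts at an unadjusted p under 0.05 are given without their share over all tested genes, and nothing is read from them. DESeq2, whose calls are given beside those of edgeR for some lists, called 345 genes higher and 476 lower in all at the same thresholds. Of 6 photosynthetic leaf markers, none at 0 in any genotype, 1 (*LHCB2.1*, log2 change -1.12, edgeR adjusted p = 0.00346) was called lower, where 2.93% of all tested genes were. At an unadjusted p under 0.05, 5 were lower and 0 higher, and *CAB2*, *RBCS1A* and *RBCS3B* had edgeR adjusted p-values of 0.0138, 0.0345 and 0.0129 at changes too small for a call. Their summed level was 26420 to 36600 CPM in Col-0 against 21400 to 22720 CPM in *ubp5*. Of 13 root markers, 8 were tested and none was called by edgeR or DESeq2, with 1 (*IRT1*, log2 change 1.38) at an unadjusted p under 0.05, and their sums overlapped at 114 to 154 CPM and 105 to 141 CPM. The 5 flower markers summed to 14.1 to 29.4 CPM over the libraries. Only 1 of them passed the filter and was tested by edgeR, which called 0, whereas DESeq2 called 1 higher. Seed storage markers reached 134 CPM in *ubp5* replicate 1 and 70.4 CPM in *ubp5* replicate 3, against 15.4 to 41.3 CPM in the other libraries. Of these 4, edgeR tested 2 and called 0, whereas DESeq2 called 1 higher. The part of these tissues in the lectin levels was not tested.

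The 3 arrays are short. On TAIR10.1, the genes of chromosome 1 lie within chr1:19333088-19352791 (19.7 kb, all on the minus strand). Those of chromosome 2 lie within chr2:16414034-16422158 (8.12 kb, minus strand), and those of chromosome 3 within chr3:5579290-5599224 (19.9 kb). Some copies within an array are close relatives. *PBP1* and *JAL31* shared 89.4% of the aligned coding bases, *JAL22* and *JAL23* 86.9%, AT1G52000 and *MBP1* 84.1%, and *MBP2* and *MBP1* 81.7%, whereas the 31 pairs from different arrays shared 61.8 to 69.1%. *JR1* shared 63.3 to 67.0% with the other 4 genes of its array, which lies within the range between arrays. *JAL34* and *JR1* lie tail to tail on opposite strands and overlap by 631 bases, and the counting was strand-specific. Few stretches as long as a read (55 bases) had an exact second copy in the genome. Of 446 such windows in the last 500 transcript bases, *MBP1* and *MBP2* each had 12 (2.69%) that occur at least 2 times. *PBP1* had 2 (0.448%) and the other 7 genes had 0. Windows across an exon junction (57 in *PBP1*, 52 in *JAL22*, 18 in *JAL31*, 10 in *MBP2*) cannot be found in the genome. Whether these are unique was not examined, nor were near matches.

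The windows before the transcription starts of the chromosome 1 genes are shown because these 3 genes lie side by side and were all far higher in *ubp5*. Each line gives the 250 bases before the annotated start on the minus strand of TAIR10.1, read 5′ to 3′, and capitals mark CANNTG, the core recognised by bHLH factors.
AT1G52000 (chr1:19336136-19336385): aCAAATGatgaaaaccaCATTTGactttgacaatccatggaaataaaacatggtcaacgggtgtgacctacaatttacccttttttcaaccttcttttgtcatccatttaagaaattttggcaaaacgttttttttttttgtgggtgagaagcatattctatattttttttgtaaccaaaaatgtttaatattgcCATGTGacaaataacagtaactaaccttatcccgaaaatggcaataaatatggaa
MBP2 (chr1:19349089-19349338): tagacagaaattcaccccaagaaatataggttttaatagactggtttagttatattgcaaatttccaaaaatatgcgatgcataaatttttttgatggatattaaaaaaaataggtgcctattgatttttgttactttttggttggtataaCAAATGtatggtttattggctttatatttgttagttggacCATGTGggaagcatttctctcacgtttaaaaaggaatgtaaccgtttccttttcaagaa
MBP1 (chr1:19352792-19353041): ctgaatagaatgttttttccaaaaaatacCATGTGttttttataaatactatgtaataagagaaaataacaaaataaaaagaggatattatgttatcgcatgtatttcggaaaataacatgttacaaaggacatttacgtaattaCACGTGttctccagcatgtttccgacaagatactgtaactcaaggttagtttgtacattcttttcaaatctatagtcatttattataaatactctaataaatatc

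The 3 windows hold 3, 2 and 2 CANNTG sites. *MBP1* alone among the 10 has the G-box CACGTG, which 6.49% of 27443 protein-coding promoters of the same length hold on either strand. CANNTG, which includes CACGTG, was found in 7 of the 10 windows and in 55.3% of all promoters. TTGAC was in 5 of 10 (44.9% of all), GAGAGA in 2 of 10 (20.6% of all), and AAACCCTAA and GCCGCC in 0 of 10 (2.61% and 1.87% of all), both strands being searched. The shares of the common motifs among the 10 thus lay near those of all promoters.

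The windows of *PBP1* and *JAL31* are shown because these neighbours are the closest copies and yet differ in level. Both lie on the plus strand of chromosome 3, and capitals mark the longest stretch they share without a difference.
PBP1 (chr3:5579040-5579289): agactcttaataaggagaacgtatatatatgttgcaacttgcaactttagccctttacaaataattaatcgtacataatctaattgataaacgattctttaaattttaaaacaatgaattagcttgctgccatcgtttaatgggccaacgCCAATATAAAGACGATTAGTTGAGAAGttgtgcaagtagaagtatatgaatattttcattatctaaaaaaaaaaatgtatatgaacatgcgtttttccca
JAL31 (chr3:5581318-5581567): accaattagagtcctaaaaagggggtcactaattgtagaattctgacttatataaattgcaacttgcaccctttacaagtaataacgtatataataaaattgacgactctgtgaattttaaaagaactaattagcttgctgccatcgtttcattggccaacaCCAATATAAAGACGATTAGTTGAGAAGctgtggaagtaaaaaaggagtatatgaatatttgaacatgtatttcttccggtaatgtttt

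The shared stretch is 27 bases long, starting at position -100 from the annotated start in *PBP1* and -88 in *JAL31*, and 84.3% of 217 aligned bases were identical over the windows. Neither window holds a CANNTG. The *JAL22* and *JAL23* windows aligned over 135 bases with 78.5% identity and a longest shared stretch of 13 bases, and *MBP2* and *MBP1* over 28 bases with 67.9%.

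In the *ubp5* seedlings all 10 lectin genes had a higher mean than in Col-0. The genes of chromosome 1 and *JAL23* differed most, from low levels, whereas the abundant genes of chromosome 3 had smaller ratios and carried most of the added transcripts. In 9 of the 10 genes every *ubp5* library lay above every Col-0 library, where 7.87% of the 15649 tested genes did so. The criterion for a call was met by 6 of the 10, where 1.91% of all tested genes were called higher. Since the genes were chosen on this contrast, nothing is read from these counts. The median log2 change was 1.06 over the 10 genes and -0.01 over all tested genes. The samples were whole seedlings, so more cells of a type and more RNA per cell cannot be told apart.

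**Figure D1:**
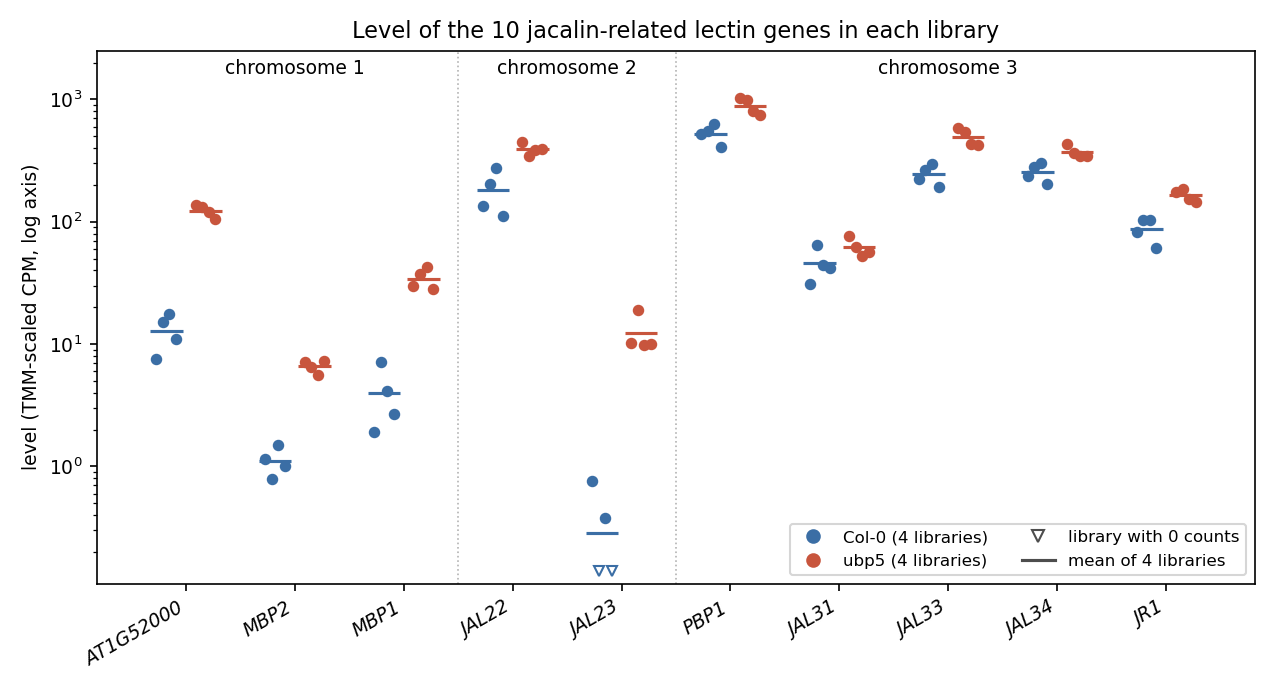
Level of each lectin gene in each library, in TMM-scaled CPM on a log axis, with blue points for the 4 Col-0 and red points for the 4 *ubp5* libraries, lines for the means and open triangles for libraries with 0 counts. The *ubp5* points lie above the Col-0 points in 9 genes, and *JAL31* is the gene in which they overlap.

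On chromosome 1, AT1G52000 was the most abundant gene of its array in both genotypes. Its product is annotated as a member of the mannose-binding lectin superfamily. It was at 7.59, 15.1, 17.7 and 11.0 CPM in Col-0 replicates 1 to 4 and at 137, 133, 119 and 105 CPM in *ubp5* replicates 1 to 4. The lowest *ubp5* library was thus far above the highest Col-0 library, and the log2 change was 3.26 (SE 0.20). *MBP1* and *MBP2* encode myrosinase-binding proteins. *MBP1* was at 1.90, 7.14, 4.14 and 2.68 CPM in Col-0 and at 29.6, 37.1, 42.3 and 28.1 CPM in *ubp5*, a log2 change of 3.11 (SE 0.29). *MBP2* was the rarest, with 3, 2, 4 and 3 counts in Col-0 and 14, 17, 8 and 16 counts in *ubp5*. The corresponding means were 1.11 ± 0.299 and 6.63 ± 0.741 CPM (SD, n = 4), and the log2 change was 2.53 (SE 0.32). The groups did not overlap in any of the 3 genes, and at such counts *MBP2* carries a large counting error: the ratio of its summed counts was 6.03, with an exact 95% interval of 3.19 to 12.4 that covers counting error only.

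The pair on chromosome 2 joined an abundant and a nearly silent gene. *JAL22* was at 135, 205, 276 and 112 CPM in Col-0 and at 448, 343, 382 and 397 CPM in *ubp5*. Col-0 replicate 3 came nearest to the *ubp5* libraries, without overlap, and the log2 change was 1.11 (SE 0.23). *JAL23*, its neighbour, gave 2, 0, 1 and 0 counts in Col-0 replicates 1 to 4 against 20, 50, 14 and 22 in *ubp5*. A count of 0 allows up to 1.19 CPM in Col-0 replicate 2 and 1.00 CPM in Col-0 replicate 4 (3 counts a library), so Col-0 stayed at or near the detection limit. Over summed counts, 3 in Col-0 against 106 in *ubp5*, *JAL23* was 46.5 times higher in *ubp5*, with an exact 95% interval of 15.5 to 229 that covers counting error only. The fitted log2 change of 5.26 depends on the count added before taking logs and is no bound. *ubp5* replicate 2 (19.1 CPM) stood above the other *ubp5* libraries (9.86 to 10.2 CPM).

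On chromosome 3, *PBP1* was the most abundant of the 10 genes in both genotypes. It was at 520, 552, 626 and 407 CPM in Col-0 and at 1036, 982, 806 and 740 CPM in *ubp5*, a log2 change of 0.76 (SE 0.15). The groups did not overlap. Its closest copy *JAL31* was at 31.1, 65.1, 44.4 and 41.8 CPM in Col-0 and at 76.0, 62.3, 52.8 and 57.0 CPM in *ubp5*. Col-0 replicate 2 lay within the *ubp5* range, and the log2 change of 0.45 (SE 0.20) was the smallest of the 10. *JAL31* thus ran at a fraction of the level of *PBP1* in every library.

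*JAL33* and *JAL34*, both annotated as mannose-binding lectin superfamily proteins, were of nearly equal level in Col-0 and parted in *ubp5*. *JAL33* was at 224, 264, 298 and 193 CPM in Col-0 and at 589, 542, 432 and 421 CPM in *ubp5*, a log2 change of 1.02 (SE 0.15). *JAL34* was at 235, 281, 303 and 203 CPM in Col-0 and at 428, 362, 344 and 343 CPM in *ubp5*, a log2 change of 0.53 (SE 0.14). *JAL34* was the higher of the pair in all 4 Col-0 libraries and *JAL33* in all 4 *ubp5* libraries. *JR1*, the jasmonate-responsive gene that overlaps the end of *JAL34* on the other strand, was at 83.1, 103, 104 and 60.9 CPM in Col-0 and at 174, 186, 154 and 146 CPM in *ubp5*, a log2 change of 0.91 (SE 0.16). In none of these 3 genes did the groups overlap. Col-0 replicate 4 was the lowest library for *PBP1*, *JAL33*, *JAL34* and *JR1*, and Col-0 replicate 3 the highest.

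The order of the levels changed in part. In Col-0 it ran *PBP1*, *JAL34*, *JAL33*, *JAL22*, *JR1*, *JAL31*, AT1G52000, *MBP1*, *MBP2* and *JAL23*. In *ubp5* it ran *PBP1*, *JAL33*, *JAL22*, *JAL34*, *JR1*, AT1G52000, *JAL31*, *MBP1*, *JAL23* and *MBP2*. Neighbours whose libraries overlapped were *JAL34*, *JAL33* and *JAL22* in both genotypes, and *JR1* and *JAL31* in Col-0. All other neighbours in either order had libraries that did not overlap. AT1G52000 was below *JAL31* in all 4 Col-0 libraries and above it in all 4 *ubp5* libraries.

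Summed over the 10 genes, the libraries held 1240, 1493, 1676 and 1033 CPM in Col-0 and 2934, 2673, 2347 and 2255 CPM in *ubp5*. The means were 1360 ± 282 and 2552 ± 312 CPM (SD, n = 4), a ratio of 1.88. The arrays contributed unequally. The chromosome 1 sum was at 17.9 ± 6.29 CPM in Col-0 against 164 ± 16.5 CPM in *ubp5*, a ratio of 9.17, and its share of the total was 1.30% in Col-0 and 6.46% in *ubp5*. The chromosome 2 sum was at 182 ± 74.3 and 405 ± 40.1 CPM, a ratio of 2.22, nearly all of it *JAL22*. The chromosome 3 sum was at 1160 ± 206 and 1983 ± 282 CPM, a ratio of 1.71, and held 85.7% of the total in Col-0 and 77.6% in *ubp5*. Of the 1192 CPM added in *ubp5*, *PBP1* made up 30.6%, *JAL33* 21.1%, *JAL22* 17.7%, *JAL34* 9.51%, AT1G52000 9.28%, *JR1* 6.45%, *MBP1* 2.54%, *JAL31* 1.38%, *JAL23* 1.01% and *MBP2* 0.463%. Among the 4 genes with the largest ratios, *JAL23*, *MBP1* and *MBP2* thus added under 3% each. The log2 ratio of the summed lectins was 0.91, and 0.87 without Col-0 replicate 1, the library that stood apart in the second component. For chromosomes 1, 2 and 3 it was 3.20, 1.15 and 0.77, and without that library 3.01, 1.03 and 0.75.

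**Figure D2:**
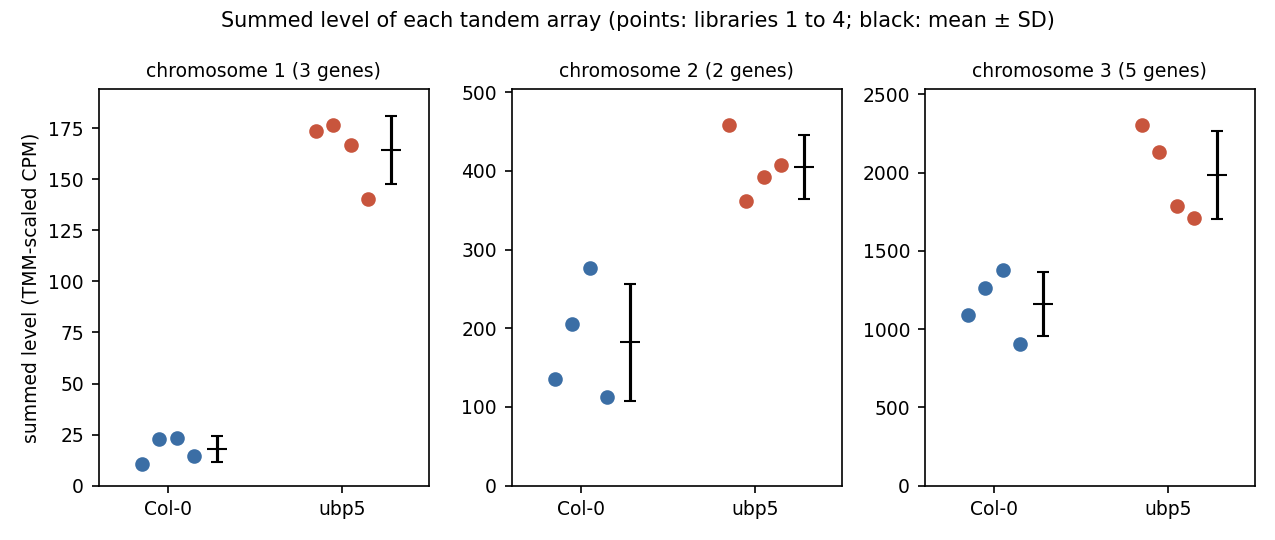
Summed TMM-scaled CPM of the lectin genes of each array (axes from 0), with points for libraries 1 to 4 of each genotype and black bars for the mean ± SD. The groups do not overlap in any array, and the means of chromosome 1 are 17.9 and 164 CPM against 1160 and 1983 CPM on chromosome 3.

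The relative spread among the 4 libraries was smaller in *ubp5* than in Col-0 for 10 of the 10 genes, where 54.6% of all tested genes and 58.9% of those with a mean of at least 20 CPM did so. The median coefficient of variation of the 10 was 29.0% in Col-0 and 13.7% in *ubp5*, against 17.1% and 16.3% over all tested genes. It was 40.8% and 11.0% for *JAL22*, and 17.3% and 15.8% for *PBP1*. The coefficient also falls as counts rise, and the genes vary together, so the 10 are not independent. No test of the difference in spread was made.

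Within a genotype the lectin genes tended to be high or low in the same libraries. As log2 deviations from the genotype mean (pseudocount of 1), Col-0 replicate 3 was above the mean in 10 of 10 genes and Col-0 replicate 4 in 0 of 10, whereas *ubp5* replicates 1 and 2 were above it in 8 and 7 genes and *ubp5* replicates 3 and 4 in 1 and 2. Over the 8 libraries the 45 pairs of genes had a median r of 0.48, and 39 were positive. These are descriptions, since all points share the library and its scaling. The tightest group was *PBP1*, *JAL33*, *JAL34* and *JR1*, with r from 0.88 to 0.97. *JAL22* on chromosome 2 had r of 0.69 to *PBP1*, 0.76 to *JAL33*, 0.77 to *JR1* and 0.91 to *JAL34*, and 0.75 to AT1G52000 on chromosome 1. Its r to its own neighbour *JAL23* was -0.02, but *JAL23* had 2, 0, 1 and 0 counts in Col-0 replicates 1 to 4. Counts so low cannot show whether the pair varied together. *JAL31* was less like *PBP1* (0.40) than *JAL33* was (0.97), although it is the closer copy. *JAL23* and *MBP2*, the genes of lowest count, had the negative values. The median r was 0.67 for the 14 pairs within an array and 0.46 for the 31 pairs between arrays. The higher median within arrays rests on chromosome 3, whose pairs had r from 0.40 to 0.97. On chromosome 1 the pairs had r of 0.75, 0.13 and -0.47, and the pair on chromosome 2 had -0.02. Without Col-0 replicate 1 the median r of all pairs was 0.55, with 0.60 within and 0.51 between arrays.

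**Figure D3:**
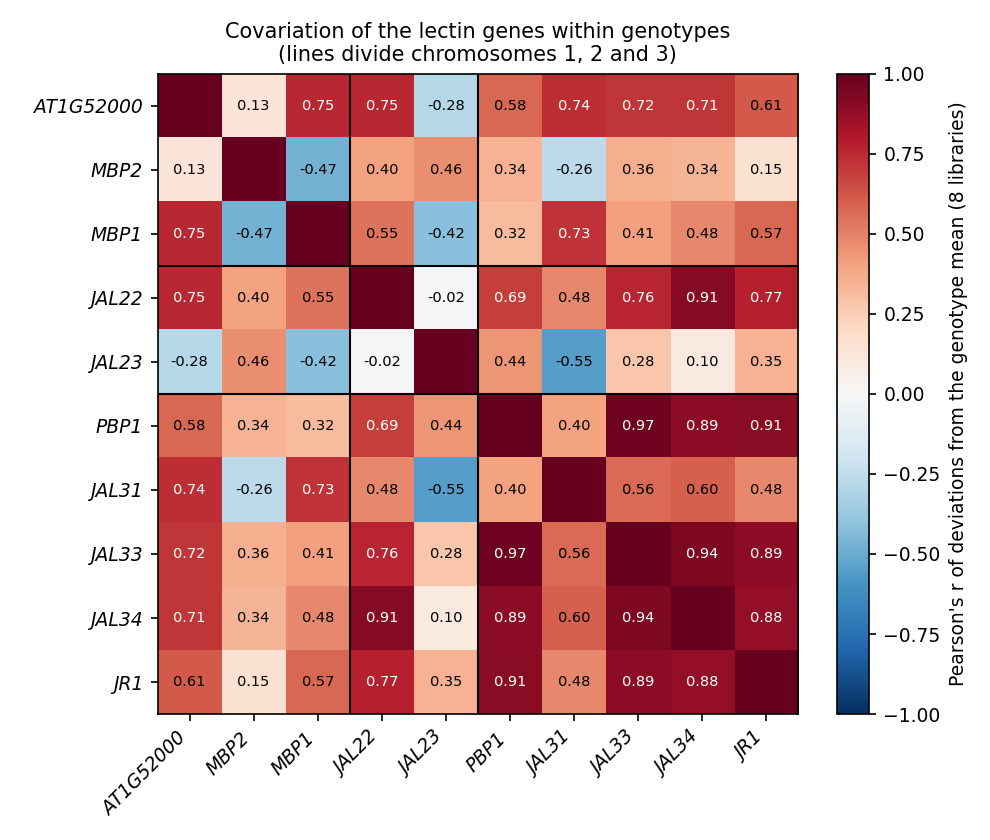
Pearson's r between lectin genes, from log2 deviations of the 8 libraries from their genotype mean, in red for positive and blue for negative values, with black lines between the arrays. *PBP1*, *JAL33*, *JAL34* and *JR1* form the darkest block (0.88 to 0.97), and *JAL23* and *MBP2* hold the blue cells.

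Among 8046 other tested genes with a mean of at least 20 CPM, the 5 whose deviations were most like those of the summed lectins were *LTP* (a lipid transfer protein gene), AT5G19120, AT5G12050, AT4G12545 and *MSR2*. Their r was 0.973 to 0.984 and Spearman's rho 0.905 to 0.952 over 8 libraries, and r was 0.940 to 0.979 without the 2 libraries farthest from the median of the summed lectins. These genes were picked as the highest of 8046 on the same 8 libraries. Their values are thus a description, and whether unrelated genes would reach them was not tested. None was called between the genotypes. *LTP* was at 59.5 ± 15.2 CPM in Col-0 against 76.2 ± 10.1 CPM in *ubp5*, and AT5G12050 at 58.9 ± 27.5 and 31.5 ± 6.44 CPM (SD, n = 4).

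Of the 33 other protein-coding genes that lie between the lectins or within 5 genes of them, 22 were tested and 1 was called, where edgeR called 1.91% of all tested genes higher and 2.93% lower. Among the 16 tested neighbours outside the jacalin family, log2 changes ran from -0.94 (*AR791*) to 0.41 (AT2G39270), 0 were called by edgeR or by DESeq2, 3 had an unadjusted p under 0.05, and the smallest adjusted p was 0.0790 (edgeR). They were *ABO5*, AT1G51980 and *AR791* on chromosome 1, AT2G39260, AT2G39270, AT2G39280, *PGP1*, AT2G39300, *SAC3A*, *ABCG1* and AT2G39360 on chromosome 2, and AT3G16370, *MPPalpha*, *PAP1*, AT3G16510 and *UGT88A1* on chromosome 3. *IQD27*, AT1G51970, AT1G51990, AT2G39320, AT2G39355, *MAKR4*, *PAB6*, AT3G16432 and *IQD26* were too low to test.

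Jacalin-family neighbours behaved differently from gene to gene. AT1G52100, which lies beyond the described span on chromosome 1 with further jacalin genes after it, was at 18.2, 15.9, 23.7 and 9.70 CPM in Col-0 and at 75.0, 49.7, 45.8 and 49.8 CPM in *ubp5*. The groups did not overlap, and it was called higher, with a log2 change of 1.71 (SE 0.24, edgeR adjusted p = 0.000675). AT1G52060 and AT1G52070, which lie between it and *MBP1*, had log2 changes of -0.26 and 0.40 and were not called, and AT1G52050 was too low to test. On chromosome 3, *MLP-300B* between *JAL31* and *JAL33* was at 5.88 ± 1.25 CPM in Col-0 against 6.38 ± 1.96 CPM (SD, n = 4) in *ubp5*. The nitrile specifier genes *NSP1* and *NSP4*, just before *PBP1*, had log2 changes of 0.45 (adjusted p = 0.0741) and 0.60 (adjusted p = 0.0707) in edgeR's test and were not called, and *NSP3* was too low to test.

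**Figure D4:**
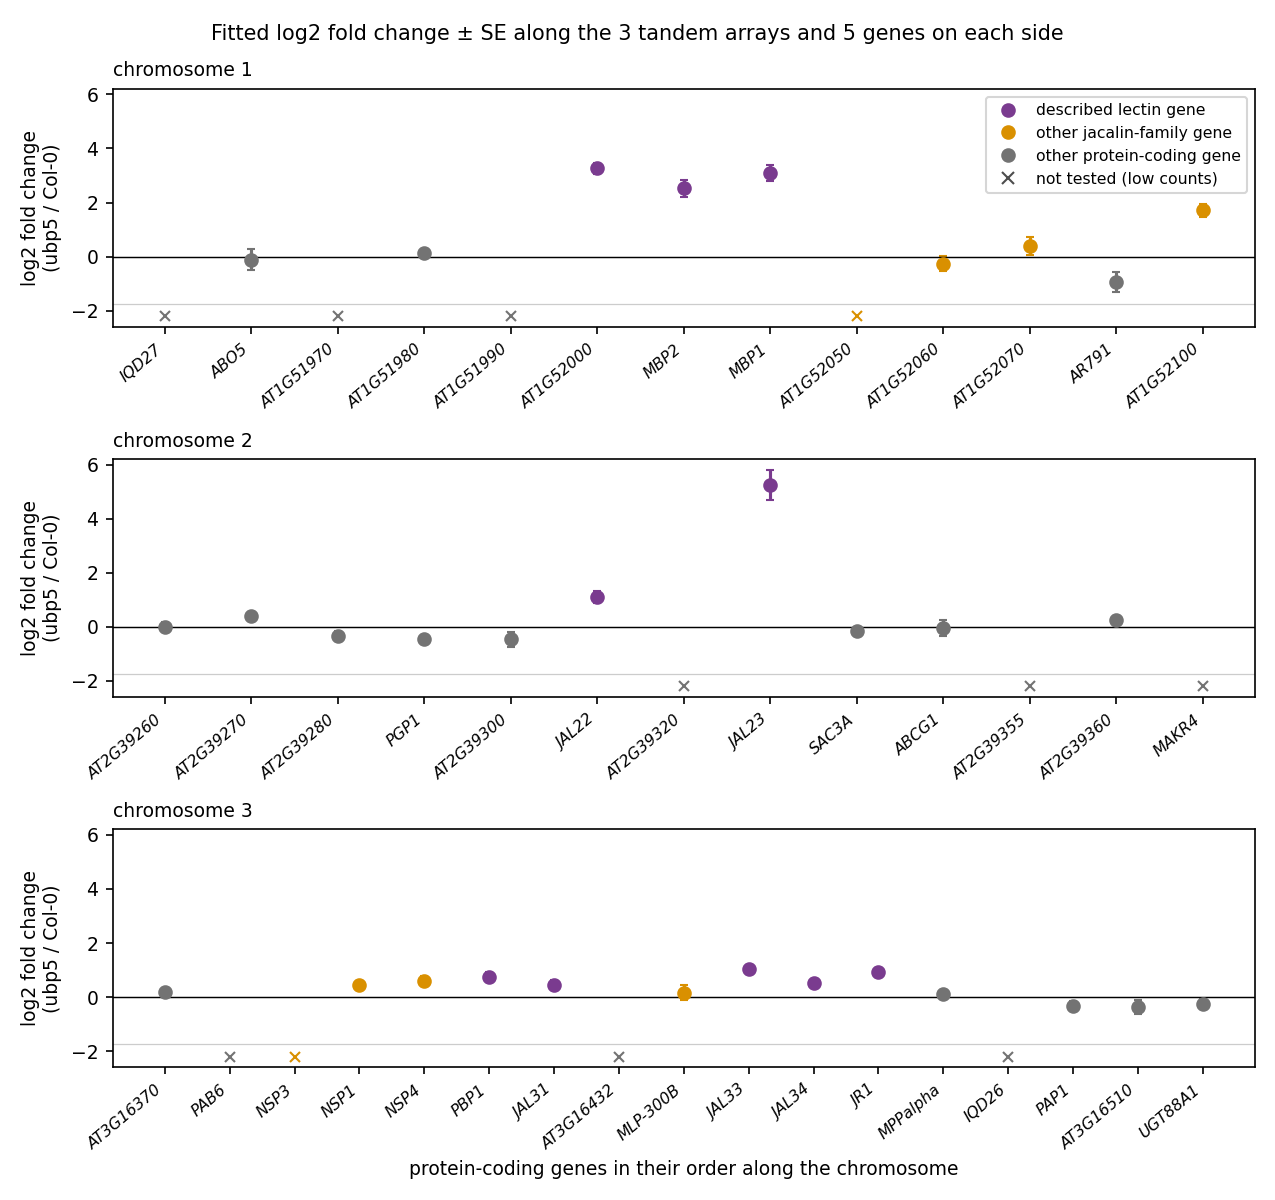
Fitted log2 change (*ubp5* over Col-0) ± SE of each protein-coding gene in its order along the 3 arrays, in purple for the described lectins, orange for other jacalin-family genes and grey for other genes, with crosses for genes too low to test. Among the neighbours AT1G52100 (1.71) is the one called, and the grey genes lie between -0.94 and 0.41.

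Over the whole family outside the 10 genes, 2 of 13 tested genes were called higher and 0 lower by edgeR, with 6 higher and 0 lower at an unadjusted p under 0.05. DESeq2 called 3 higher and 0 lower, which adds *NSP2*, a gene too low for the edgeR test (at most 10 counts in a library). Of all tested genes, edgeR called 1.91% higher and 2.93% lower. The second gene that edgeR called higher was AT1G73040, at 2.01 ± 0.562 CPM in Col-0 against 9.12 ± 1.47 CPM (SD, n = 4) in *ubp5*, a log2 change of 2.12 (SE 0.29, edgeR adjusted p = 0.000655). With 6, 4, 4 and 8 counts in Col-0, AT1G73040 passed the filter through its *ubp5* libraries. *RTM1*, a jacalin gene known for restricting the movement of a plant virus, had a log2 change of 1.03 and was not called (adjusted p = 0.0687). The median over the 13 was 0.40, and 10 of them were above 0. Another 26 family genes were too low to test, 6 of them with no count in any library.

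Of the 14 genes of the ER body and the PYK10 complex, 12 were tested, and 3 were called higher and 0 lower by edgeR, with 7 higher and 1 lower at an unadjusted p under 0.05. DESeq2 called 4 higher and 0 lower, which adds *BGLU19*, a gene too low for the edgeR test (at most 16 counts in a library). Over all tested genes, edgeR called 1.91% higher and 2.93% lower. The median log2 change was 0.55, and 11 of the 12 were above 0. The list was drawn up with these data known and is not independent evidence of its direction. *PYK10* was at 1288, 1575, 1503 and 1139 CPM in Col-0 and at 2041, 1857, 1567 and 1583 CPM in *ubp5*. The groups overlapped, and its log2 change of 0.36 (SE 0.13) was not called (adjusted p = 0.116 in edgeR). *NAI1*, the bHLH regulator of ER bodies, and *NAI2*, an ER body protein, had log2 changes of 0.45 and 0.47 and were not called (adjusted p = 0.261 and 0.244 in edgeR's test).

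Of the called genes, *BGLU18* and *TSA1* are known from the ER bodies that wounding and jasmonate induce in leaves. *BGLU18*, a β-glucosidase of inducible ER bodies, was at 26.6, 48.4, 66.2 and 37.5 CPM in Col-0 and at 346, 343, 329 and 339 CPM in *ubp5*, a log2 change of 2.93 (SE 0.21, adjusted p = 6.17e-06 in edgeR's test). *TSA1*, a relative of *NAI2* required for these bodies, was at 9.35 ± 5.79 CPM in Col-0 against 57.6 ± 4.77 CPM (SD, n = 4) in *ubp5*, a log2 change of 2.62 (edgeR adjusted p = 0.000133). AT1G54010, one of an array of GDSL-lipase-like genes, was at 58.7 ± 20.2 and 192 ± 51.5 CPM (SD, n = 4), a log2 change of 1.71 (edgeR adjusted p = 0.000655). The ER body membrane protein gene *MEB1* and *MVP1*, another GDSL-lipase-like gene, had log2 changes of 0.69 and 0.63 with edgeR adjusted p-values of 0.0197 and 0.0398, below the fold change set for a call. The remaining tested genes, *BGLU21*, *BGLU22*, *MEB2* and *GLL22*, ranged from -0.48 to 0.67.

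Of 13 myrosinase and specifier genes, 10 were tested, with 1 called higher and 1 lower by edgeR, 4 higher and 2 lower at an unadjusted p under 0.05, and a median log2 change of -0.09. Among all tested genes edgeR's calls were 1.91% higher and 2.93% lower. *ESP*, an epithiospecifier gene, was at 1257, 1449, 468 and 1504 CPM in Col-0 and at 4065, 3418, 3024 and 2845 CPM in *ubp5*, a log2 change of 1.51 (SE 0.28, adjusted p = 0.00505 in edgeR). Whether its product turns glucosinolate breakdown towards nitriles and epithionitriles in these Col-0 background seedlings was not measured. *ESM1*, which counters *ESP*, was at 48.2, 78.6, 227 and 25.1 CPM in Col-0 and at 14.3, 17.6, 24.7 and 16.3 CPM in *ubp5*, a log2 change of -2.40 (SE 0.57, edgeR adjusted p = 0.0175). Col-0 replicate 3, the Col-0 library highest for the lectins, was the lowest for *ESP* and the highest for *ESM1*. Without Col-0 replicate 3 the log2 change of *ESM1* was -1.49 (SE 0.32, edgeR adjusted p = 0.0139). Without *ubp5* replicate 1, 2 or 4 it was -2.31, -2.38 and -2.35, and *ESM1* was no longer called (adjusted p up to 0.0591). The myrosinases *TGG1* and *TGG2*, partners of the MBPs, had log2 changes of -0.32 and 0.64 and were not called (edgeR adjusted p = 0.249 and 0.101).

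Among 8 genes of the MYC branch of jasmonate responses, 7 were tested, and 6 were called higher and 0 lower by edgeR, with 7 higher and 0 lower at an unadjusted p under 0.05. DESeq2 called 7 higher and 0 lower, which adds *THI2.1*, a gene too low for the edgeR test (at most 15 counts in a library). The edgeR calls over all tested genes were 1.91% higher and 2.93% lower. The median log2 change was 1.68. This list too was drawn up with these data known. The called genes were *CORI3* (a cystine lyase, log2 change 2.44), *TAT3* (a tyrosine aminotransferase, 2.38), *CLH1* (a chlorophyllase, 1.95), *LOX2* (a lipoxygenase of jasmonate synthesis, 1.68) and the vegetative storage protein genes *VSP1* (1.54) and *VSP2* (1.16), with edgeR adjusted p-values from 5.06e-05 (*CORI3*) to 0.00242 (*VSP1*). *AOS*, which encodes the allene oxide synthase of jasmonate synthesis, had a log2 change of 0.69 and was not called (edgeR adjusted p = 0.137). *JR1*, at 0.91, lay between *AOS* and *VSP2*.

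**Figure D5:**
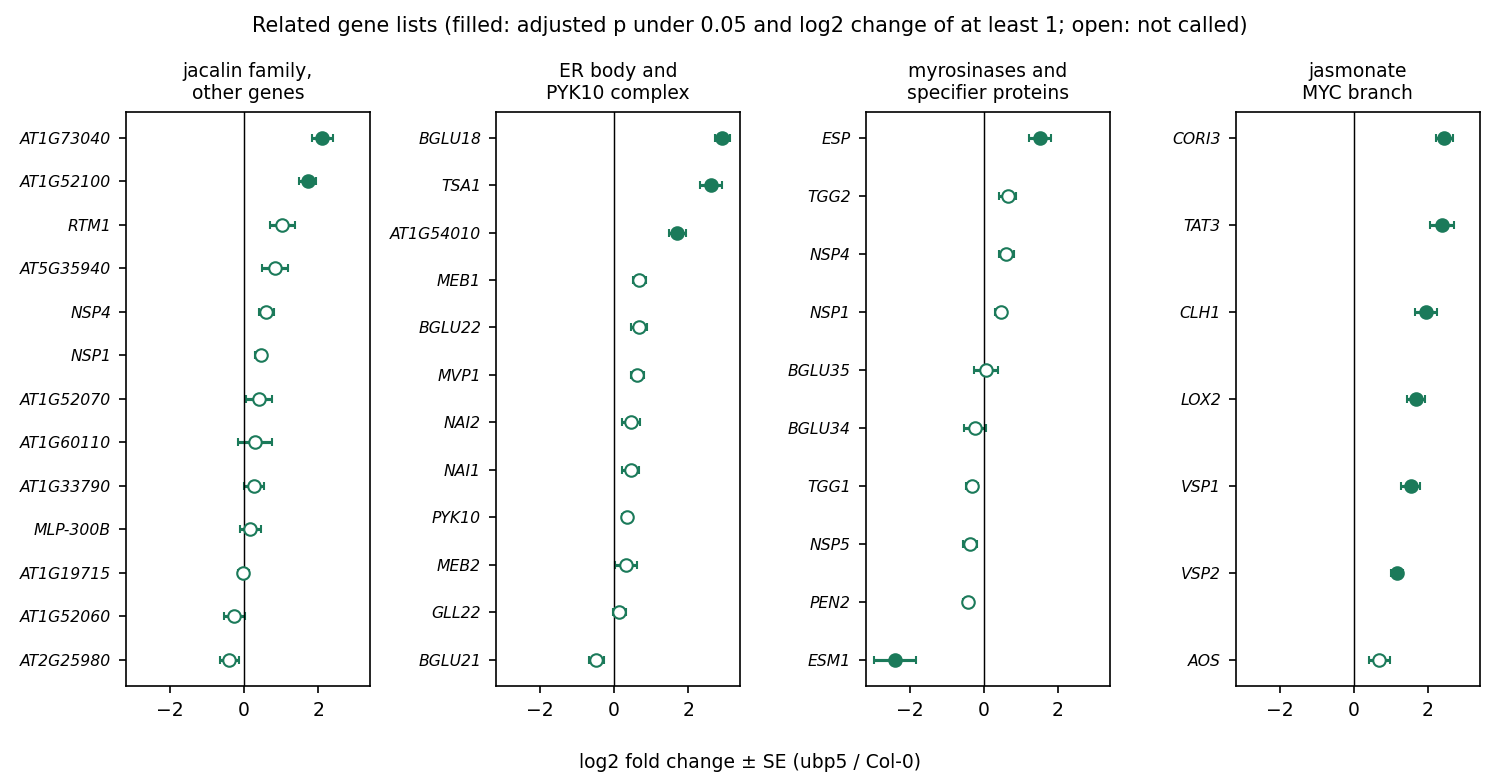
Fitted log2 change (*ubp5* over Col-0) ± SE of the tested genes of 4 related lists, with filled points for genes called (adjusted p under 0.05, at least 1 log2 unit in size) and open points for the others. *BGLU18* (2.93) and *TSA1* (2.62) lead the ER body list, in which *PYK10* (0.36) is open, and 6 of the 7 tested jasmonate genes are filled.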

How the data were processed

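The authors trimmed the 55-base reads, mapped them with STAR 2.7.8a to TAIR10 with the Araport11 annotation, and deposited, for each library, unnormalized sense-strand counts per gene after collapsing reads with the same molecular identifier. Counts of all 37336 genes were analysed with edgeR 4.0.16 (R 4.3.3): low genes were removed with filterByExpr, which left 15649, library sizes were scaled by TMM, and a quasi-likelihood test with genotype as the only term was adjusted by Benjamini-Hochberg. A gene was called at an adjusted p under 0.05 and 1 log2 unit or more in either direction. The script was tested on simulated data. Errors are the SD over 4 biological replicates unless named.

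The 10 lectin genes and all lists were chosen with earlier results of these data known. Genes named in the text were the 10 lectins, *UBP5*, called genes of the lists, array neighbours within 5 genes, 4 fixed ER body genes, the 2 genes with the smallest p of lists without a call, and the 5 most alike genes. Some genes were also named to complete a list. Positions and sequences come from RefSeq's TAIR10.1 annotation, which matched 37051 identifiers, whereas the counts were made on TAIR10. Identities are from pairwise alignments (Biopython 1.88). Replicate numbers did not pair the libraries. Alternatives were DESeq2 1.42.0, its size factors, other filters and thresholds, a replicate block, omission of organelle genes, and omission of each library.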

Additional observations from a re-analysis of the deposited data

Results flagged for a closer look

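In 2 of 62 groups of 4 libraries that were examined, 1 library stood apart from the other 3 by Dixon's criterion, which chance meets in about 1 of 20 groups. *JAL23* was at 19.1 CPM in *ubp5* replicate 2, with 9.86 to 10.2 CPM in the other *ubp5* libraries. AT1G52100 was at 75.0 CPM in *ubp5* replicate 1, with 45.8 to 49.8 CPM in the other *ubp5* libraries. All 4 *ubp5* libraries lay above all Col-0 libraries in both genes.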

How the results depend on the processing

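No log2 change, log2 ratio or median r reversed in sign under an alternative, and counts of called genes have no sign to reverse. The lectins were chosen on this contrast, so nothing is read from their constant sign. Over all genes, 299 were called higher and 459 lower; without a fold-change threshold these were 719 and 992, at an adjusted p under 0.01 they were 184 and 279, and with 1 library left out they ranged from 249 (without *ubp5* replicate 1) to 465 (without Col-0 replicate 1) and from 402 to 493. The 14 alternative fits gave 139 log2 fold changes for the 10 lectins, since *MBP2* did not pass a stricter filter on low counts. All 139 values were above 0, and 1 moved by more than the spread between replicates, *JAL23* at 6.17 without Col-0 replicate 1. The count of called lectins, 6 in the fit as reported, was 4 to 7 with 1 library left out and 5 to 9 otherwise; these alternatives were chosen after the data were seen. *JAL33* was called in 10, *JAL22* in 12 and *JR1* in 1 of 14 fits. ER body genes called higher were 5 without a fold-change threshold. Myrosinase and specifier genes called higher were 2 with DESeq2 and with no filter, which adds *NSP2*; those called lower were 2 without a fold-change threshold, 0 at an adjusted p under 0.01, and 0 to 1 with a library left out. The cause was not tested. Same-numbered libraries did not deviate together (r from -0.12 to 0.03 for the 4 numbers), so numbers were not taken to pair the libraries; with a replicate block 269 genes were called higher and 396 lower, and every list gene called in the report was called.

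At these depths a count of 0 allows 1.00 to 2.11 CPM, the level of 3 counts. In Col-0 *JAL23* (0 to 2 counts) and *MBP2* (2 to 4) are near it, and 13 of the 26 untested family genes have at most 3 counts in every library. The deletion is a single line, and a difference in tissue make-up of the seedlings cannot be told apart from one in RNA per cell.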
